A study of Mus musculus with 6 samples.

Results

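This account concerns 47 genes whose estimated mean transcript length was lower or higher in the quadriceps of HSA-LR mice than in that of WT mice. RSEM, the program that made the deposited tables, gives each gene in each library a transcript length, which is the mean length of the gene's annotated transcripts weighted by their estimated share of its molecules. The genes were chosen by 3 criteria: an expected count of at least 100 in each of the 6 libraries, an absolute log2 ratio of mean length (HSA-LR over WT) of at least 0.5, and no overlap between the 3 HSA-LR and the 3 WT lengths. Of 53947 genes, 6513 met the count criterion, and 47 of these met all criteria, 39 with shorter and 8 with longer transcripts in HSA-LR. The lengths thus selected the genes, and they are described here without a test.

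Total RNA was sequenced from the quadriceps of HSA-LR mice (3 libraries) and WT mice (3 libraries) after removal of ribosomal RNA. HSA-LR mice carry a transgene of human skeletal actin with about 220 CTG repeats, and its RNA is made in skeletal muscle fibres. The knockout mice of the same work were 12 weeks old, and no age is stated separately for the mice of these libraries. The muscles were received as gifts, and neither the strain nor the litters of the HSA-LR and WT mice are given in the sources used here, so an effect of the repeats and a difference in genetic background cannot be told apart. Nothing in the labels says that the libraries came from separate animals, so p-values measure only the spread between these libraries.

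Expanded CUG repeats in RNA bind and trap the muscleblind-like (MBNL) proteins, which normally regulate alternative splicing and the choice of polyadenylation sites in muscle. A gene can change its mean transcript length by skipping or including exons, retaining introns, starting or ending at other sites, or by a changed balance between a full-length mRNA and short noncoding forms. The gene-level tables hold only the weighted mean. They give a shift in the estimated balance of forms and, in most genes, not which form it concerns. The lengths chose the genes, so whether the balance differed beyond estimation error and the spread between libraries was not tested.

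In Klhdc1 and Kbtbd12 the share of 1 annotated short form could be estimated. Klhdc1 (chromosome 12, 69287950 to 69331424 on GRCm39) encodes a kelch-repeat protein that recruits substrates to a cullin ubiquitin ligase, and Kbtbd12 (chromosome 6, 88521296 to 88614932) encodes a protein with kelch repeats and a BTB domain. Mllt3 (chromosome 4, 87687837 to 87951610), which encodes a reader of acetylated histones that takes part in transcription elongation, stands beside them as a member with deep coverage. The lines below give, for each gene, the junction of the full-length mRNA and of a short annotated transcript, as 15 bases of the exon before the junction in lower case and 15 bases of the exon after it in capitals, 5′ to 3′, read from GRCm39 at the exon ends of GENCODE M39.
Klhdc1-201, exons 1 and 2: tgggggggctacgtgTCTATTGAAGACAAT
Klhdc1-202, exons 1 and 2: tgggggggctacgtgATTAGAAAATAAGCC
Kbtbd12-202, exons 2 and 3: tattgaaatctatagGTATCATGATAGAGG
Kbtbd12-207, exons 1 and 2: cagcacttcgccgagGTATCATGATAGAGG
Mllt3-201, exons 2 and 3: ctaggccaaaaagagTGTGCAAAGACCCAC
Mllt3-206, exons 2 and 3: ctaggccaaaaagagCTTGGACAGAGTGGA

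Both Klhdc1 forms use the 5′ splice site at the end of the first exon (base 69288787). The full-length mRNA joins it to an exon that starts at 69297527, whereas Klhdc1-202, a form of 228 bases with no defined coding sequence, joins it to an exon that starts at 69289289, which is the last exon of that form. In Kbtbd12 the forms share the 3′ side of the junction (base 88591146, minus strand). Kbtbd12-207, a form of 291 bases with no defined coding sequence, leaves the coding exon at base 88595349, and the full-length mRNA leaves it at base 88594765. Mllt3-206, a form of 966 bases annotated as a target of nonsense-mediated decay, holds an extra exon of 75 bases (87929870 to 87929944) that the full-length mRNA lacks. Each of these introns begins with GT and ends with AG on the transcribed strand. The pairs show how annotated forms differ and do not stand for the main form of either group. The last exon of Mllt3-201 alone has 4547 bases, more than the mean transcript length of Mllt3 in any library.

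Klhdc1 had the largest shift. Its transcript length was 724, 802 and 718 bases in the HSA-LR libraries, against 2058, 2338 and 2060 bases in the WT libraries. The groups lay far apart, with the longest HSA-LR value 1.36 below the shortest WT value on the log2 scale, and the log2 ratio of mean length was -1.52. The counts hardly differed, at 19.8 ± 4.46 CPM (reads relative to the TMM-scaled library total) in HSA-LR and 18.0 ± 1.27 CPM in WT (SD, n = 3 each), so the shift in length came without a called change in reads.

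Kbtbd12 had a transcript length of 2516, 2573 and 2366 bases in HSA-LR and 4114, 4164 and 4163 bases in WT, a log2 ratio of -0.74. The WT libraries lay within an SD of 28.5 bases, and the SD in HSA-LR was 107 bases. With a mean of 2032 counts per library this was the most deeply covered of the 47 genes. Mllt3 measured 1128, 1198 and 1088 bases in HSA-LR, against 1677, 1655 and 1629 bases in WT, a log2 ratio of -0.54 at a mean of 1098 counts. Reep5 (chromosome 18, 34477929 to 34507123), which encodes a protein that shapes the endoplasmic and sarcoplasmic reticulum, measured 2328, 1814 and 1674 bases in HSA-LR, against exactly 2852 bases in all 3 WT libraries. In WT muscle the reads of Reep5 were thus assigned to transcripts of 1 length only, and in every HSA-LR library shorter ones took a share.

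**Figure D1:**
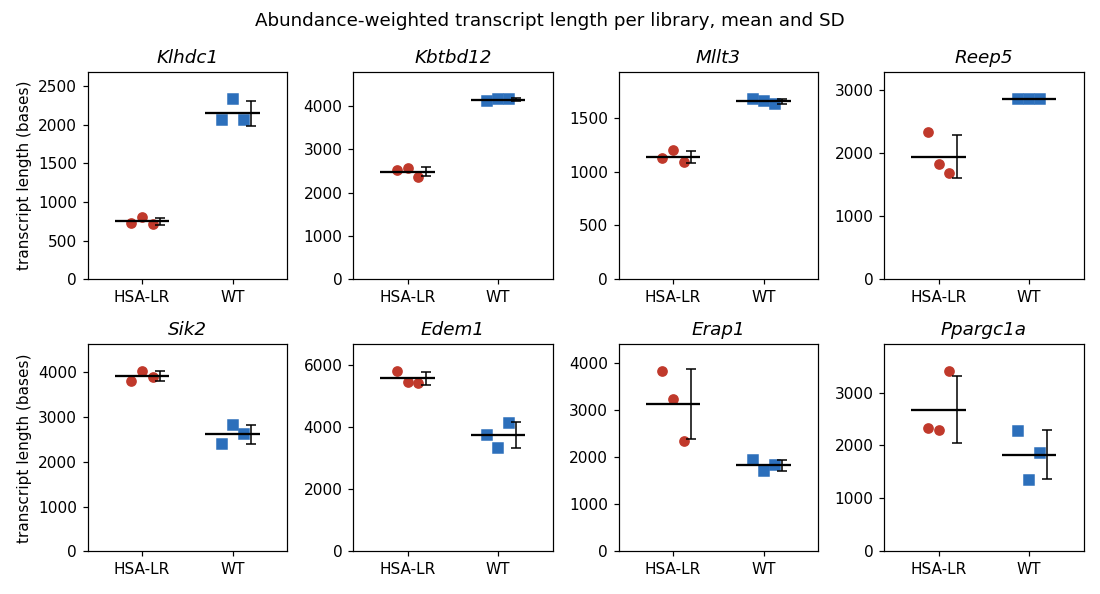
Abundance-weighted transcript length in bases (vertical axis, from 0) of 8 genes in each HSA-LR library (red circles, left) and each WT library (blue squares, right), with the mean (black line) and the SD (bar). Klhdc1, Kbtbd12, Mllt3 and Reep5 are shorter in HSA-LR and Sik2, Edem1, Erap1 and Ppargc1a longer. The HSA-LR and WT points of each gene do not overlap, because the genes were chosen so, and in Ppargc1a the gap is narrow.

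The second length in the tables, the effective length, gave a handle on the shortest forms. RSEM subtracts from a transcript's length about the mean fragment length, less for transcripts near that length, so the difference between length and effective length falls short of its value in long genes only where very short transcripts hold a share. In Klhdc1 this shortfall was 2.71, 4.55 and 3.79 bases in HSA-LR and 1.09, 0.69 and 1.32 bases in WT. From it, Klhdc1-202 held 73.4% to 77.1%, 71.2% to 75.3% and 73.2% to 77.0% of the gene's molecules in the HSA-LR libraries, and 10.3% to 20.4%, 0% to 12.2% and 13.1% to 23.9% in the WT libraries. In Kbtbd12 the shortfall was 0.19, 0.34 and 0.32 bases in HSA-LR and 0, 0 and 0.03 bases in WT. Kbtbd12-207 then held 20.2% to 25.0%, 18.9% to 21.3% and 22.0% to 25.6% of molecules in HSA-LR, and at most 1.43%, 1.25% and 3.27% in WT. In both genes the HSA-LR intervals all lay above the WT intervals, whose length reflects what the rounding of the tables and the other short forms leave undecided. If only Klhdc1-202 had changed its share, the Klhdc1 lengths in HSA-LR would lie within 705 to 860 bases, 743 to 912 bases and 708 to 864 bases, and the deposited lengths fell within these ranges. If only Kbtbd12-207 had changed its share, the Kbtbd12 lengths would be 3189 to 3429, 3332 to 3481 and 3168 to 3361 bases in HSA-LR. All were above the deposited ones, so the estimated shares of other Kbtbd12 forms, not resolved here, also differed. The shortfall was above WT in every HSA-LR library in 2 more members, Cnot6l (0.1, 0.33 and 0.05 bases in HSA-LR, against 0.01, 0 and 0.01 in WT) and Map3k5 (0.03, 0.14 and 0.08 bases in HSA-LR, against 0 in each WT library), for which no share was computed.

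Few reads stood behind these shares, since a short transcript yields few fragments per molecule. In Klhdc1 the share of Klhdc1-202 corresponded to 15.3 to 16.1, 22.8 to 24.2 and 29.6 to 31.1 of 158, 296 and 306 counts in the HSA-LR libraries, and to at most 2.08, 1.03 and 2.04 of 276, 264 and 231 counts in the WT libraries. In Kbtbd12 the share of Kbtbd12-207 corresponded to 10.2 to 12.5, 12.2 to 13.7 and 15.03 to 17.5 of 871, 1209 and 1129 counts in HSA-LR and to at most 1.42, 1.25 and 2.99 of 3043, 3106 and 2831 counts in WT. The shift of Klhdc1 therefore rested on some 15.3 to 31.1 reads per HSA-LR library. Gene-level values do not show whether these reads crossed a splice junction. The shares assume that the transcripts whose version differs from GENCODE M39 (1 in Klhdc1 and 2 in Kbtbd12) are not themselves very short. Of 1374 genes with 1 transcript of another version and at least 2000 bases in M39, 1.67% had a deposited length below 500 bases.

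**Figure D2:**
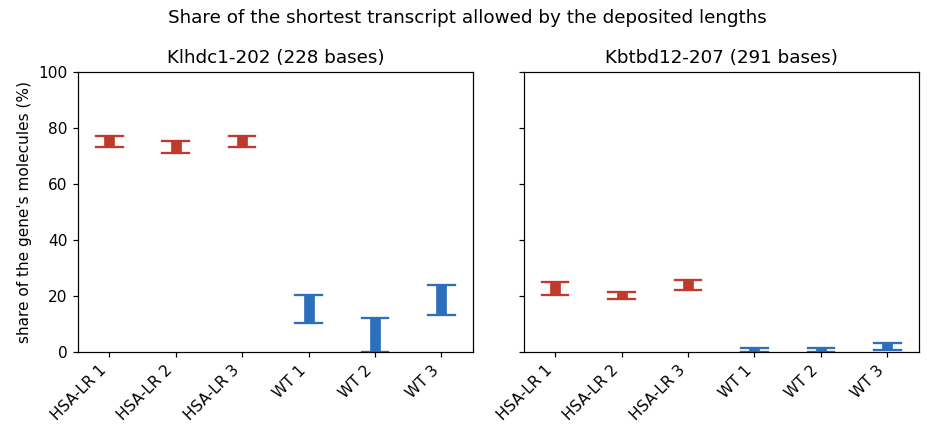
Lowest and highest share of the gene's molecules (vertical axis, percent) that the deposited length and effective length allow for Klhdc1-202 (left) and Kbtbd12-207 (right) in each HSA-LR library (red) and each WT library (blue). The HSA-LR intervals of Klhdc1-202 lie between 71.2% and 77.1% and all WT intervals end by 23.9%, and those of Kbtbd12-207 lie between 18.9% and 25.6% with WT intervals ending by 3.27%.

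For Mllt3 the length alone set a lower limit. If every other form was at least as long as the next one of known length, 1293 bases, then Mllt3-206 held at least 50.4%, 29.1% and 62.7% of molecules in the HSA-LR libraries, while the WT lengths, all above 1293 bases, require none. Of 410 genes with 1 transcript of another version and at least 4000 bases in M39, 3.41% had a deposited length below 1293 bases. That share is for single long transcripts, whereas the limit needs all 4 Mllt3 forms of other versions to reach 1293 bases. This condition could not be checked directly. Rrp7a and Erap1 were the 2 members for which every transcript had the version of M39, and their values are given with their roles below.

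The remaining members are described by role, with those that shortened first. Among regulators of transcription, Nfia (nuclear factor I/A) measured 2017, 2625 and 2342 bases in HSA-LR, against 4461, 3201 and 3773 bases in WT. Cbfa2t2, a corepressor of the MTG family, measured 2335, 2991 and 2497 bases in HSA-LR and 4013, 4970 and 3740 bases in WT. Atf7, a bZIP factor, measured 2809, 2785 and 3326 bases in HSA-LR and 5093, 4342 and 4787 bases in WT. Their log2 ratios were -0.71, -0.70 and -0.67, and in each the shortest WT value lay above the longest HSA-LR value by 0.29, 0.32 and 0.38 on the log2 scale. Zfx (-0.59), Bcor (-0.57), Zfp62 (-0.56), Ubn2 (-0.53), Zfp516 (-0.53) and Atxn1 (-0.62), which encode zinc-finger proteins, a corepressor, a histone chaperone subunit and a corepressor-binding protein, shortened by less. Atxn1 was the least even of these, with 2601, 6134 and 5112 bases in HSA-LR and 8741, 6322 and 6199 bases in WT, and without HSA-LR replicate 1 its ratio was -0.33.

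Several members act on RNA itself. Hnrnpd, which binds AU-rich elements and influences mRNA decay and splicing, measured 1599, 1356 and 1091 bases in HSA-LR, against 2770, 1935 and 2595 bases in WT (log2 ratio -0.85). Cnot6l, a deadenylase of the CCR4-NOT complex, which also serves miRNA-guided repression, measured 3049, 3843 and 3913 bases in HSA-LR and 4493, 5612 and 6025 bases in WT (-0.58). Strbp, which binds double-stranded RNA, measured 4625, 4533 and 3523 bases in HSA-LR and 5663, 5861 and 7616 bases in WT (-0.59). Papola, a nuclear poly(A) polymerase, had a ratio of -0.53 and Gigyf2, a translational repressor, of -0.52. Rrp7a, which takes part in ribosomal RNA processing, measured 2110, 1664 and 1426 bases in HSA-LR and 2127, 2158 and 3714 bases in WT. Its groups were separated by only 0.01 on the log2 scale, and its ratio of -0.62 rested on WT replicate 3, without which it was -0.31. The longest annotated Rrp7a transcript has 4363 bases and is coding. It held 36.9% to 41.9%, 24.4% to 30.4% and 17.8% to 24.2% of molecules in the HSA-LR libraries, against 37.4% to 42.3%, 38.3% to 43.1% and 81.8% to 83.3% in the WT libraries.

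Among membrane, secreted and signalling proteins, Acer3, an alkaline ceramidase, measured 2464, 3960 and 3784 bases in HSA-LR, against 5618, 5801 and 10608 bases in WT. Its log2 ratio was -1.11, and with the median of each group in place of the mean it was -0.62, since WT replicate 3 stood apart. Alpk2, an alpha-kinase expressed in striated muscle, measured 1522, 2747 and 1866 bases in HSA-LR and 3467, 4161 and 4265 bases in WT (-0.95). Itga9, an integrin alpha subunit, measured 3909, 4313 and 2993 bases in HSA-LR and 6021, 5265 and 6710 bases in WT (-0.68). Adamtsl5, a secreted protein of the extracellular matrix, had nearly equal lengths of 1714, 1703 and 1699 bases in HSA-LR and scattered ones of 3121, 2047 and 2795 bases in WT (-0.64). Chid1, a chitinase-like lectin, had a ratio of -0.64, and Ccdc93, a component of an endosomal sorting complex, one of -0.63. The growth factor gene Fgf2 had a ratio of -0.62 with 2669, 3061 and 2914 bases in HSA-LR and 3978, 3372 and 5973 bases in WT.

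The other shortened members spread over transport, trafficking, stress signalling and protein handling. Cnih4 (-0.61) serves export from the endoplasmic reticulum, Mvb12b (-0.60) is an ESCRT-I subunit, Slc9a8 (-0.55) exchanges sodium for protons and Slc11a2 (-0.51) carries iron. Peli2 (-0.60) is a ubiquitin ligase of innate immune signalling and Map3k5 (-0.59) a stress-activated kinase. Topbp1 (-0.54) acts in the response to DNA damage, Cct6a (-0.53) is a subunit of the cytosolic chaperonin and Dpp3 (-0.51) is a peptidase. Mroh1 (-0.51), Wdr37 (-0.50), Wdr13 (-0.50) and 1700025G04Rik (-0.83) complete the 39. The last of these measured 2813, 3239 and 3327 bases in HSA-LR, against 5576, 5350 and 5768 bases in WT, the widest gap between groups (0.69) after Klhdc1.

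The 8 members that lengthened include 3 of the endoplasmic reticulum. Erap1, an aminopeptidase that trims peptides for antigen presentation, measured 3826, 3230 and 2350 bases in HSA-LR, against 1945, 1713 and 1833 bases in WT, a log2 ratio of 0.78. The longest annotated Erap1 transcript has 5644 bases and is coding. It held 44.7% to 65.6%, 36.9% to 54.3% and 0% to 37.4% of molecules in the HSA-LR libraries and at most 29.9%, 25.4% and 27.6% in the WT libraries. Thus 2 of the 3 HSA-LR intervals lay above the WT ones. Edem1, which directs misfolded glycoproteins to degradation, measured 5817, 5475 and 5451 bases in HSA-LR and 3772, 3322 and 4153 bases in WT (0.57). Alg2, a mannosyltransferase of N-glycan assembly, measured 2719, 2756 and 3021 bases in HSA-LR and 2084, 2202 and 1650 bases in WT (0.52).

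Sik2, a salt-inducible kinase that acts on metabolic gene expression, measured 3803, 4022 and 3894 bases in HSA-LR, against 2390, 2811 and 2630 bases in WT (0.58). Edem1 and Sik2 had the widest gaps between groups among the lengthened genes, 0.39 and 0.44 on the log2 scale. Ppargc1a, the coactivator of mitochondrial biogenesis, measured 2325, 2293 and 3404 bases in HSA-LR and 2267, 1340 and 1867 bases in WT (0.55), and its groups were separated by only 0.02. Ptpn4, a protein tyrosine phosphatase, measured 3980, 5073 and 7443 bases in HSA-LR and 3786, 3164 and 2786 bases in WT (0.76). Ltbp1, which holds latent TGF-beta in the matrix, measured 3854, 2504 and 2971 bases in HSA-LR and 1687, 1974 and 2162 bases in WT (0.68). Map1a, a microtubule-associated protein, measured 8470, 8068 and 10331 bases in HSA-LR and 6285, 7234 and 5029 bases in WT (0.53).

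**Figure D3:**
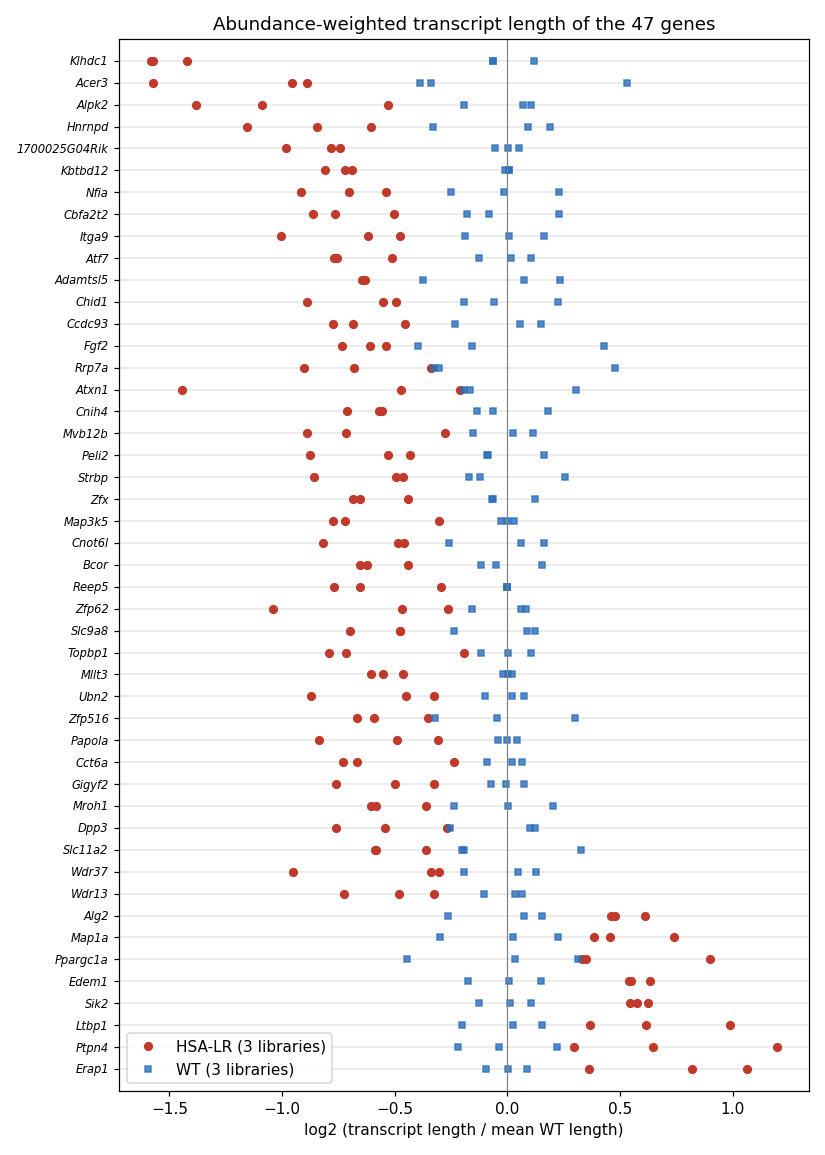
Log2 of the transcript length relative to the mean WT length (horizontal axis) for the 47 genes (rows, in order of the ratio) in the HSA-LR libraries (red circles) and the WT libraries (blue squares). The 39 shortened genes run from Klhdc1 at the top, with a ratio of -1.52, and the 8 lengthened genes end with Erap1 at 0.78. Every red point lies outside the range of the blue ones of its row, as the choice required.

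Just inside the bound of 0.5 were Wdr13 (-0.50), Wdr37 (-0.50) and Slc11a2 (-0.51). Just outside it, with groups that did not overlap, were Evi5 (-0.50), Kmt2b (-0.50) and Nadk2 (-0.50), all shorter in HSA-LR. Members shorter in HSA-LR made up 0.599% of the 6513 genes and members longer 0.123%. Without the bound on the ratio, 601 genes had HSA-LR lengths entirely below the WT lengths (9.23%) and 277 entirely above them (4.25%). Shortening was thus also the commoner direction over all genes, although the median log2 ratio of all 6513 was -0.002. In a further 14 genes the ratio passed 0.5 but the groups overlapped. With any 1 of the 6 libraries left out, 18 of the 47 genes still met all criteria. These were Klhdc1, Acer3, Alpk2, Hnrnpd, 1700025G04Rik, Kbtbd12, Nfia, Cbfa2t2, Itga9, Atf7, Adamtsl5, Chid1, Ccdc93, Cnih4, Zfx and Mllt3 of the shortened and Sik2 and Erap1 of the lengthened genes, and the other 29 fell below the bound in at least 1 such set.

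**Figure D4:**
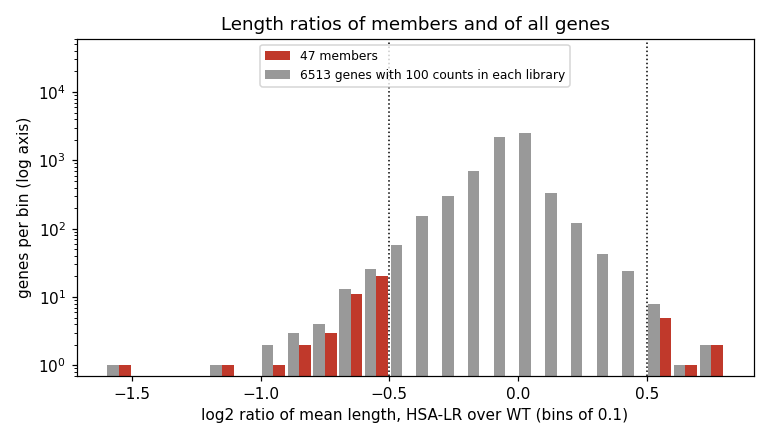
Number of genes per bin of 0.1 (vertical axis, log scale) by log2 ratio of mean length, HSA-LR over WT (horizontal axis), for the 47 members (red) and the 6513 genes with 100 counts in each library (grey). Dotted lines mark the bound of 0.5 on either side. The tail below -0.5 holds 39 members and that above 0.5 holds 8.

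Annotation, counts and lengths of the members were also compared with those of all 6513 genes. Counts and lengths entered the criteria, so only the annotation lies outside them. All 47 members were annotated as protein coding, close to the 97.0% of the 6513 genes. They had 3 to 23 annotated transcripts with a median of 8, beside a median of 6 over the 6513 genes, of which 545 had 1 transcript and could not change length. Their median count was 275, beside 375, and the share of genes that were members was 1.1% in the lowest of 4 equal classes by count and 0.307% in the highest. The median WT length was 3811 bases in the 39 shortened and 2294 bases in the 8 lengthened members, beside 2471 bases over the 6513 genes. Of 4 equal classes by WT length the one with the shortest transcripts held 0 members. WT length is part of the ratio that chose the genes, so nothing is read from these values. Lengths of members also varied more within a group, with a median SD of log2 length of 0.21 in HSA-LR and 0.17 in WT. Over all 6513 genes it was 0.07 in HSA-LR and 0.05 in WT. These SDs come from the same lengths that chose the genes. Each of the 39 shortened members had at least 1 annotated transcript of matching version below all 6 of its lengths, 195 in all. Of these 73 were coding, 53 retained an intron, 45 had no defined coding sequence and 23 were targets of nonsense-mediated decay. All 8 lengthened members had such a transcript too, 26 in all, with 9 coding, 6 that retained an intron, 7 without defined coding sequence and 4 targets of decay. A mean length that varies lies above that of the gene's shortest form, so such a transcript was nearly bound to be found. The share over the 6513 genes was not computed, and nothing is read from these numbers.

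The 47 members are 0.722% of the 6513 genes, so lists of this size would hold 1 member or none at that share, and nothing particular to a list is read from its count. In a list of 48 measured genes with known MBNL splicing control, 0 were members. There 15 genes (31.2%, beside 9.23% of all genes) had HSA-LR lengths entirely below the WT lengths and 6 (12.5%, beside 4.25%) entirely above them, with a median log2 ratio of -0.04. The widest ratios without overlap were 0.43 for Kif13a, a kinesin, and -0.36 for Ank2, an ankyrin. Lists with 1 member each held Hnrnpd among 53 splicing regulators, Cnot6l among 21 genes of the miRNA pathway, Ppargc1a among 52 genes of energy metabolism and Kbtbd12 among 43 genes of proteolysis and autophagy. None was found among 55 sarcomere genes, 41 genes of excitation and calcium handling, 78 nuclear genes of the respiratory chain, 73 ribosomal protein genes, 38 matrix genes or 12 host genes of miRNAs and snoRNAs. Raised shares of genes without overlap were not limited to the MBNL list. Among excitation and calcium genes 24.4% lay entirely below WT and 2.44% entirely above. Among sarcomere genes these shares were 7.27% and 14.5%, among miRNA pathway genes 19% and 0%, and among splicing regulators 9.43% and 3.77%. Genes shared between lists were not removed, so the lists are not independent of each other. The shares of all genes include 646 genes with the same length in all libraries, which could not separate. The lists were chosen with earlier results known, and whether their shares differed from those of all genes was not tested.

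The size of the shift differed between the HSA-LR libraries. The median log2 length of the 39 shortened members, relative to WT, was -0.72, -0.53 and -0.64 in replicates 1, 2 and 3, and replicate 2 was the least shifted library in 25 of the 47 members. The libraries also differed in composition: 7SL and 7SK RNA took 43.9%, 18.8% and 24.0% of counts in HSA-LR and 14.1% to 15.5% in WT, and the gap between length and effective length of long genes, which follows the fragment length, was 156, 164 and 158 bases in HSA-LR and 163 to 164 bases in WT. Macrophage and leukocyte markers (10 genes, none at 0) summed to 623, 233 and 354 CPM of raw library totals in HSA-LR and 144 to 177 in WT. Fibroadipogenic progenitor markers (7 genes, none at 0) summed to 4514, 1683 and 2486 CPM in HSA-LR and 1227 to 1388 in WT. Muscle fibre markers (10 genes, none at 0) summed to 70214, 140532 and 125784 CPM in HSA-LR and 137160 to 145749 in WT. Adipocyte markers (7 genes, none at 0) summed to 705, 707 and 2597 CPM in HSA-LR and 303 to 1098 in WT, highest in HSA-LR replicate 3. The totals behind these sums include 7SL and 7SK RNA, whose share lowers the CPM of other genes most in HSA-LR replicate 1. No marker of these lists was a member, and the part of other cell types, fragment length and library composition in the shifts was not tested. In whole muscle, fewer cells of a type and less RNA per cell cannot be told apart. Library totals were 11468959, 11762822 and 13220792 counts in HSA-LR and 14048603 to 15023710 in WT.

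Read counts were compared with edgeR's quasi-likelihood test over 13576 genes, of which 4.28% were called higher and 7.48% lower in HSA-LR at an adjusted p below 0.05. Among the 47 members, 2 were called higher and 13 lower, and 32 did not pass. Among all 6513 genes that met the count criterion, 4.51% were called higher and 13.3% lower. Because the same libraries chose the members, nothing is read from these counts. Of the 39 shortened members 12 were called lower and 1 higher, and of the 8 lengthened members 1 was called lower and 1 higher.

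Ppargc1a had the largest fall in reads, with 24.5, 25.4 and 18.2 CPM in HSA-LR, against 44.0, 66.5 and 71.0 CPM in WT (log2 change -1.42, SE 0.21, adjusted p = 0.0071 by edgeR). Kbtbd12 had 82.7, 97.4 and 75.7 CPM in HSA-LR, against 215, 205 and 210 CPM in WT (-1.30, SE 0.14, adjusted p = 0.0039). Strbp had 16.0, 18.8 and 13.9 CPM in HSA-LR, against 38.6, 32.4 and 36.8 CPM in WT (-1.15, SE 0.15, adjusted p = 0.0053). Fewer reads and shorter transcripts thus stood together in Kbtbd12 and Strbp, and fewer reads and longer transcripts in Ppargc1a. Alpk2 fell as well, with 72.9, 63.9 and 56.0 CPM in HSA-LR, against 129, 122 and 165 CPM in WT (-1.11, SE 0.17, adjusted p = 0.0074). The others called lower were Mvb12b, Slc9a8, Hnrnpd, Ubn2, Cnih4, Slc11a2, Atxn1, Reep5 and Papola, with log2 changes between -0.96 and -0.49. These calls are of reads, not of molecules. With the effective length as an offset, which by construction counts more molecules for the same reads where transcripts are shorter, 2 of the 15 called members stayed called, Ppargc1a (-2.05, adjusted p = 0.029) and Itga9 (1.73, adjusted p = 0.016). On that scale Kbtbd12 stood at -0.53 (adjusted p = 0.056) and Strbp at -0.55 (adjusted p = 0.097), Alpk2 was at 0.01 (adjusted p = 0.99), and Hnrnpd, Atxn1, Cnih4, Reep5 and Papola turned to values between 0.05 and 0.19.

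Itga9 rose, with 27.3, 15.4 and 17.6 CPM in HSA-LR, against 9.04, 10.6 and 10.2 CPM in WT (1.01, SE 0.22, adjusted p = 0.023 by edgeR). Ltbp1 rose too, with 61.9, 39.4 and 49.3 CPM in HSA-LR, against 26.8, 26.7 and 24.3 CPM in WT (0.95, SE 0.17, adjusted p = 0.014). For Ltbp1 this call did not hold per length, with 0.20 under the effective length offset (adjusted p = 0.47) and -0.34 by limma on log2(TPM + 0.1) (adjusted p = 0.63). The limma value is not centred on the other genes. The log2 ratio of mean TPM of Ltbp1 stood at 0.13 relative to the median of all genes tested, which was -0.42. In both genes, and in Fgf2 with 22.8, 11.2 and 12.5 CPM in HSA-LR and 8.62, 9.26 and 8.39 CPM in WT (adjusted p = 0.071 by edgeR), replicate 1 was the highest HSA-LR library. Replicate 1 had the highest sums of macrophage and fibroadipogenic markers and also the largest share of 7SL and 7SK RNA. The part of either in these counts was not tested. Leaving out HSA-LR replicate 3 left 2 of the 47 members called, leaving out WT replicates 1, 2 or 3 left 4, 4 or 5, and adding the replicate number as a block left 7.

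**Figure D5:**
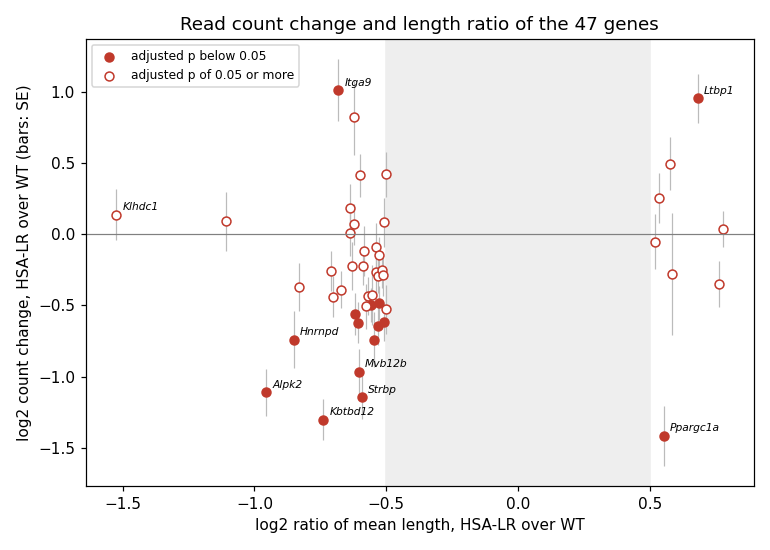
Log2 change in read counts, HSA-LR over WT (vertical axis, with SE), against the log2 ratio of mean length (horizontal axis) for the 47 genes. Filled points passed the edgeR test at an adjusted p below 0.05 and open points did not, and the grey band is the range left out by the choice of genes. Klhdc1, with the largest shift in length, lies near 0 on the vertical axis.

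Abundance per length (TPM) divides the reads by the effective length, so it moves against the length by construction. Over all genes tested the median log2 ratio of mean TPM was -0.42, and the values that follow are relative to it. Klhdc1 stood at 1.86 on that scale, beside a log2 change in reads of 0.14 (SE 0.18, adjusted p = 0.62 by edgeR). Acer3 stood at 0.99, beside 0.09 for reads. Ptpn4, Sik2, Erap1 and Alg2 stood at -1.17, -0.90, -0.79 and -0.65, beside -0.35, -0.28, 0.04 and -0.05 for reads, none of which passed the count test. In Kbtbd12 both measures were negative, -0.58 for TPM and -1.30 for reads. For these genes TPM and read counts of the same libraries therefore gave changes of different size, and in Erap1 of different sign.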

How the data were processed

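Quadriceps total RNA libraries (ribosomal RNA removed, stranded kit, per the labels) of 3 HSA-LR and 3 WT samples were assigned to groups from the genotype their titles state. The authors deposited 1 gene table per sample. It holds expected counts (RSEM's estimate of each gene's reads, with ambiguous reads divided), TPM and FPKM computed by the authors from them, and 2 other columns, the transcript length and effective length in bases. RSEM 1.3.1, Bowtie2 and build GRCm39 are listed in the submitters' processing notes. The sources used here do not name the annotation release. FPKM was not used. As the length follows RSEM's division of reads among annotated forms, it depends on that annotation and rests on few reads where a form is short.

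Coordinates and transcripts came from GENCODE M39 on GRCm39. In 28036 genes with 1 transcript of the same version the deposited length equalled the M39 length, and of 393 transcripts listed for the members 292 had the same version. Only their lengths were used. No member had exactly 2 annotated lengths, so shares were bounded by a linear programme (Rrp7a, Erap1) or from the shortfall of length minus effective length against genes longer than 3000 bases, with a tolerance of 0.02 bases. These bounds were chosen after seeing the data.

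Rounded expected counts of all genes kept by filterByExpr were tested with edgeR 4.0.16 (robust quasi-likelihood, TMM, group only, Benjamini-Hochberg over all genes tested, R 4.3.3). The SE is the absolute log2 change divided by the square root of F. In a simulation of this comparison with 200 changed genes among 13328, 76.9% of 4-fold and 40.6% of 2-fold changes were recovered, and of the 1.5-fold changes 0%. The data held far more calls, 581 higher and 1016 lower, and the adjustment of p depends on that number. These rates therefore do not carry over to the data, in which Papola was called at a fold of 1.40. Library totals ranged from 11468959 to 15023710 counts. Shares and limits cover what the tables allow and not counting error, and no molecular identifiers are mentioned for these libraries. Libraries of a group differed by more than sampling noise, with a chi-square of 9.78 or more for each degree of freedom.

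The members and the gene lists were chosen with earlier results of these data known. Genes were named if they were among the 12 most shortened or 12 most lengthened members (predicted gene models left out), in a gene list, nearest the bound, or among the 4 largest called rises and falls in counts. Mllt3, Reep5, Rrp7a, Fgf2 and 1700025G04Rik were singled out after their values were seen, and the rest are named only to account for all members. The alternatives were DESeq2 1.42.0, limma 3.58.1 on log2(TPM + 0.1), other scalings and filters, an effective length offset, a replicate block and leaving out each library.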

Additional observations from a re-analysis of the deposited data

How the results depend on the processing

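The number of members followed the criteria. It was 71 (16 longer) at a count minimum of 50, 20 (15 shorter, 5 longer) at 200, 26 (22 shorter, 4 longer) with a gap of at least 0.25 between the groups' nearest lengths, and 2 (2 shorter, 0 longer) with a ratio bound of 1. Leaving out 1 library gave 59 to 114 members, 45 to 101 of them shorter and 11 to 19 longer, and 33 to 43 of the 47 were among them. The highest number, 114, came without HSA-LR replicate 2, and without HSA-LR replicate 1 it was 88. With fewer libraries the criterion of no overlap is easier to meet. The median length per group gave 44 members, 33 of the 47 among them. Effective length in place of length gave 56 members, all 47 included, and moved the ratio by more than the spread between replicates in 2 genes, Klhdc1 (-1.75) and Mllt3 (-0.61).

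Of the 15 members called by the count test, DESeq2, RLE factors, the stricter filter and the fit without 7SL, 7SK and mitochondrial RNA each kept all 15, and upper-quartile factors kept 11. Leaving out 1 library gave 2 to 21 called members, 0 to 4 higher and 2 to 17 lower. With the effective length as an offset 6 were called (4 higher, 2 lower), 2 of them among the 15, and with limma on log2(TPM + 0.1) 3 were called (0 higher, 3 lower). Both divide by the length that chose the members. The offset turned the sign of Alpk2 (0.010), Hnrnpd (0.147), Atxn1 (0.188), Cnih4 (0.048), Reep5 (0.131) and Papola (0.129), and limma on TPM that of Ltbp1 (-0.339), where the median of all genes was also lower. The replicate block left 7 called (5 lower), all among the 15. Same-numbered HSA-LR and WT libraries correlated at 0.0005, -0.09 and 0.23 in their deviations from the group means, so the numbers were not taken as pairs. A form held by few reads, as in Klhdc1, can move a mean length by far more than its share of reads.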
